A study of Mus musculus with 30 samples.

Results

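CD140a+ mesenchyme is the fibroblast fraction of the thymic stroma, sorted here by the platelet-derived growth factor receptor alpha that Pdgfra encodes. It was represented by 6 of the 30 RNA sequencing libraries of the study, chosen by their label, and each of its genes was set against the mean of the 4 other sorted populations. All mice were newborns of strain B6.SJL and of mixed sex, with no genetic alteration named, injected on postnatal day 1 and taken on postnatal day 3. Of the 6 CD140a+ libraries, 4 came from mice given Aflibercept (Trap), a decoy receptor that binds VEGF-A, and 2 from mice given an hFC antibody (control). The 24 libraries set against them comprised the same 4 Trap and 2 control libraries in each of CD146+ mesenchyme, cortical epithelium (cTEC), medullary epithelium (mTEC) and CD31+ endothelium (Endo). Every cell came from a stromal gate without CD3, CD4, CD8, CD45 and TER119. CD140a+ and CD146+ cells were in addition negative for EpCAM and CD31, whereas the epithelial gates were EpCAM+, with Ly51 present in cTEC and low or absent in mTEC. The labels give neither the number of animals behind a library nor whether populations came from the same animals, so every p-value here refers to the spread among libraries, and some of that spread may be technical.

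Fibroblasts of the thymus form its capsule and the septa that carry vessels into the organ, and they build the fibrillar collagen matrix around them. In the embryo the mesenchyme that surrounds the epithelial rudiment supplies fibroblast growth factors, insulin-like growth factors, WNT and BMP ligands and retinoic acid, which are known to act on the growth and differentiation of thymic epithelium. The closest relatives of these fibroblasts among the sorted cells are the CD146+ mural cells, pericytes and smooth muscle of the vessel wall, which share a collagen-producing programme and differ in contractile genes.

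The label was checked against markers before any comparison. Values are the authors' FPKM (fragments per kilobase of gene, scaled to a library's fragments), which allow levels of different genes to be set side by side. Pdgfra stood at 103, 124 and 131 FPKM in CD140a+ mesenchyme (lowest, median and highest of 6 libraries, as for all such triplets here), and the highest of the 24 other libraries held 3.33 FPKM. The CD140a+ libraries correlated with each other at a Pearson r of 0.954 to 0.964 across genes on the log2(FPKM + 1) scale, and with CD146+ libraries at 0.839 to 0.868, with endothelial libraries at 0.724 to 0.765, with cTEC at 0.723 to 0.743 and with mTEC at 0.603 to 0.655. Markers of other cell types were low to differing degrees. The 14 epithelial genes summed to between 3.23 and 5.06 FPKM per CD140a+ library, with Epcam at 0.232 FPKM on average. Thymocyte genes (14) summed to between 12.4 and 20.6 FPKM, and macrophage and dendritic cell genes (14) to between 14.4 and 43.5 FPKM. Cartilage and tendon genes summed to between 2.53 and 67.1 FPKM, and Schwann and glial genes to at most 25.3 FPKM. Of 8 Schwann and glial genes tested, 2 were higher, 1 of them than in each other population, and 3 were lower. Erythroid genes reached at most 16.8 FPKM. Of 16 endothelial genes 14 were lower than the mean of the other populations, among them Cdh5 at 0.530 and Pecam1 at 1.95 FPKM. The remaining endothelial markers, Tek and Ramp2, stood at 25.7 and 18.9 FPKM in CD140a+ cells, against 92.4 and 43.9 FPKM in endothelium.

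Transcript of the pericyte gene Rgs5 was uneven among the CD140a+ libraries. It stood at 4.28, 23.3, 0.76 and 1.27 FPKM in the 4 Trap libraries and at 39.4 and 0.51 FPKM in the 2 control libraries, against 2783 to 4382 FPKM in CD146+ cells. The whole list of 16 pericyte and smooth muscle genes summed to between 178 and 289 FPKM in CD140a+ cells, much of it Abcc9 (113 FPKM) and Pdgfrb (36.6 FPKM). Without the libraries with most Rgs5, control replicate 1 and Trap replicate 2, an alternative chosen after seeing the data, the counts of the main comparison given below became 2619 genes higher and 4776 lower. Conversely, CD146+ control replicate 1 and Trap replicate 2 held more of some fibroblast transcripts than the other 4 CD146+ libraries, with the values given at Mfap4 below. In sorted bulk RNA, fewer cells of a type and less RNA per cell cannot be told apart.

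Of 16425 genes tested with limma on log2(FPKM + 1), 2938 (17.9%) were higher and 5605 (34.1%) were lower (adjusted p under 0.05, Benjamini-Hochberg). The median difference over all genes was -0.19, and 34.4% of the calls were upward. Quantile normalization moved that median by 0.11 and gave 3651 genes higher and 4316 lower, so that 45.8% of the calls were upward. The split of the counts thus moved with the scaling.

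A comparison with a mean of populations can be driven by the 3 that lack a gene altogether, so each gene was also required to differ from every other population. By this stricter test 782 genes (4.76%) were higher in CD140a+ mesenchyme than in each of the 4 others, and 504 (3.07%) were lower than in each. In 570 genes (3.47%) all 6 CD140a+ libraries lay above all 24 others, and in 324 (1.97%) they lay below all of them. Of the genes higher than the mean, 2156 were not higher than each, and 942 were lower than at least 1 other population. The population closest to CD140a+ cells was CD146+ mesenchyme for 428 of the 782 genes, mTEC for 148, endothelium for 108 and cTEC for 98. Taken pairwise, 2344 genes (14.3%) were higher and 3057 (18.6%) lower in CD140a+ than in CD146+ cells, compared with 2970 (18.1%) and 6769 (41.2%) against mTEC. By at least 3 on the log2 scale, 65 genes were higher than in the nearest population and 3 were lower. A gene can lie that far below each only if all 4 other populations express it, so these counts are unlike by construction. Against the mean of the 4 others, 215 genes were higher and 81 lower by at least 3.

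**Figure D1:**
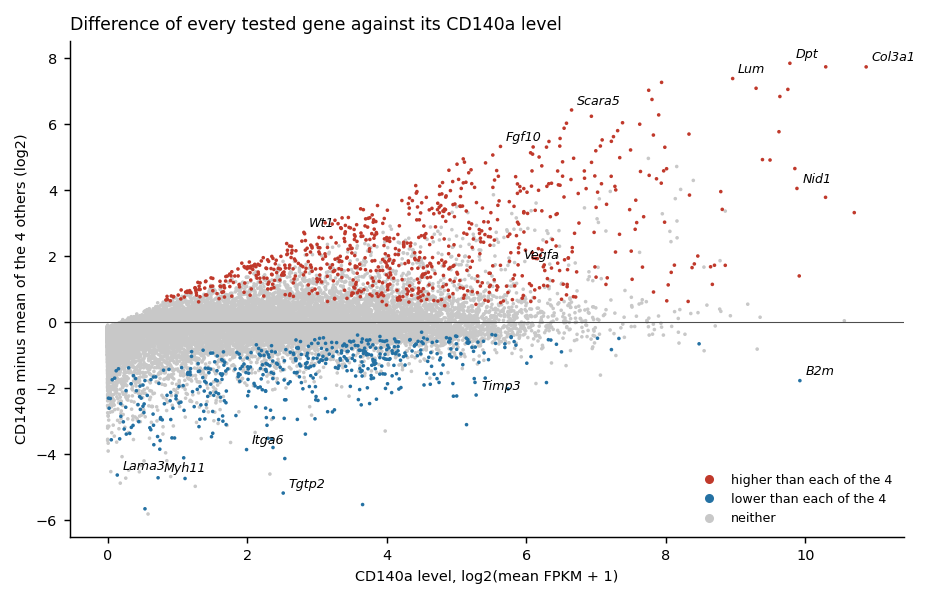
Each point is 1 of the 16425 genes tested, with its level in CD140a+ mesenchyme on the x axis (log2 of mean FPKM + 1, n = 6) and its difference from the mean of the 4 other populations on the y axis (log2). Red points are the 782 genes higher than in each other population, which reach differences of 7.84 at Dpt, and blue points the 504 genes lower than in each, which reach -5.66 at Tgtp1.

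Several of the genes with the largest differences encode matrix proteins. Dpt, which encodes dermatopontin, an adhesive matrix protein bound to collagen and decorin, stood at 726, 851 and 1069.9 FPKM in CD140a+ cells, against 10.02, 13.7 and 26.8 in CD146+ cells and at most 26.8 FPKM in any other library. It led the ranking with a difference of 7.84 ± 0.20 (log2, SE). Col1a1 and Col3a1, which encode chains of type I and type III collagen, stood at 1068, 1152 and 1525 and at 1584, 1855 and 2259.9 FPKM, against 30.5, 62.1 and 166 and 184, 199 and 209 FPKM in CD146+ cells. Their differences were 7.73 ± 0.25 and 7.73 ± 0.12. No library of another population reached the lowest CD140a+ library, which was a condition of this ranking. Lum and Dcn, which encode the collagen-binding proteoglycans lumican and decorin, stood at 348, 490.0 and 641 and at 632, 777 and 987 FPKM, with at most 11.04 and 24.7 FPKM elsewhere. In limma the adjusted p was 3.49e-21 for Dpt and 3.87e-19 for Col1a1. Nrk, a kinase gene, was higher by 6.04 ± 0.14, at a mean of 165 FPKM.

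In the GENCODE M21 annotation of GRCm38, Pdgfra (ENSMUSG00000029231.15) lies at chr5:75152292-75198215 on the plus strand, Dpt (ENSMUSG00000026574.5) at chr1:164796644-164824266 on the plus strand and Col1a1 (ENSMUSG00000001506.10) at chr11:94936224-94953042 on the plus strand. Exons of Pdgfra, Col3a1, Fbn1, Mfap4, Lama2, Fgf10, Igf2, Bmp4, Mest, Timp3 and several other genes named below overlap exons of another annotated gene. Whether the authors counted by strand is not given in the sources used here, so reads of such pairs cannot be told apart.

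Ranked by their margin over the nearest population, other genes came to the front. Mfap5, which encodes a protein of elastin-associated microfibrils, stood at 192, 213 and 271 FPKM in CD140a+ cells and at most 6.87 FPKM elsewhere, a margin of 6.36 ± 0.26 (log2, SE). Scara5, which encodes a ferritin receptor of the scavenger receptor class, stood at 73.4, 103 and 111 FPKM, against at most 1.05 FPKM in the other 24 libraries (margin 6.30 ± 0.16). Agtr2, the gene of the angiotensin II type 2 receptor, stood at 202, 232 and 321 FPKM, against at most 4.27 FPKM elsewhere (margin 6.29 ± 0.26). In CD146+ cells the means of these 3 genes were 1.75, 0.202 and 2.32 FPKM, whereas the collagens above were well expressed there.

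Zim1, an imprinted zinc finger gene, varied little among the CD140a+ libraries, at 205, 214 and 228 FPKM, against at most 6.13 FPKM elsewhere. Itm2a, which encodes a membrane protein, stood at 602, 622 and 654 FPKM, against at most 26.5 FPKM. Htra3, which encodes a secreted serine protease, stood at 73.7, 91.8 and 111 FPKM, against at most 2.08 FPKM. Dpep1, the gene of a membrane dipeptidase, was uneven: it stood at 47.1, 73.8, 110.9 and 196 FPKM in the Trap libraries and at 70.8 and 67.9 FPKM in the control libraries, with at most 2.66 FPKM in any other population.

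**Figure D2:**
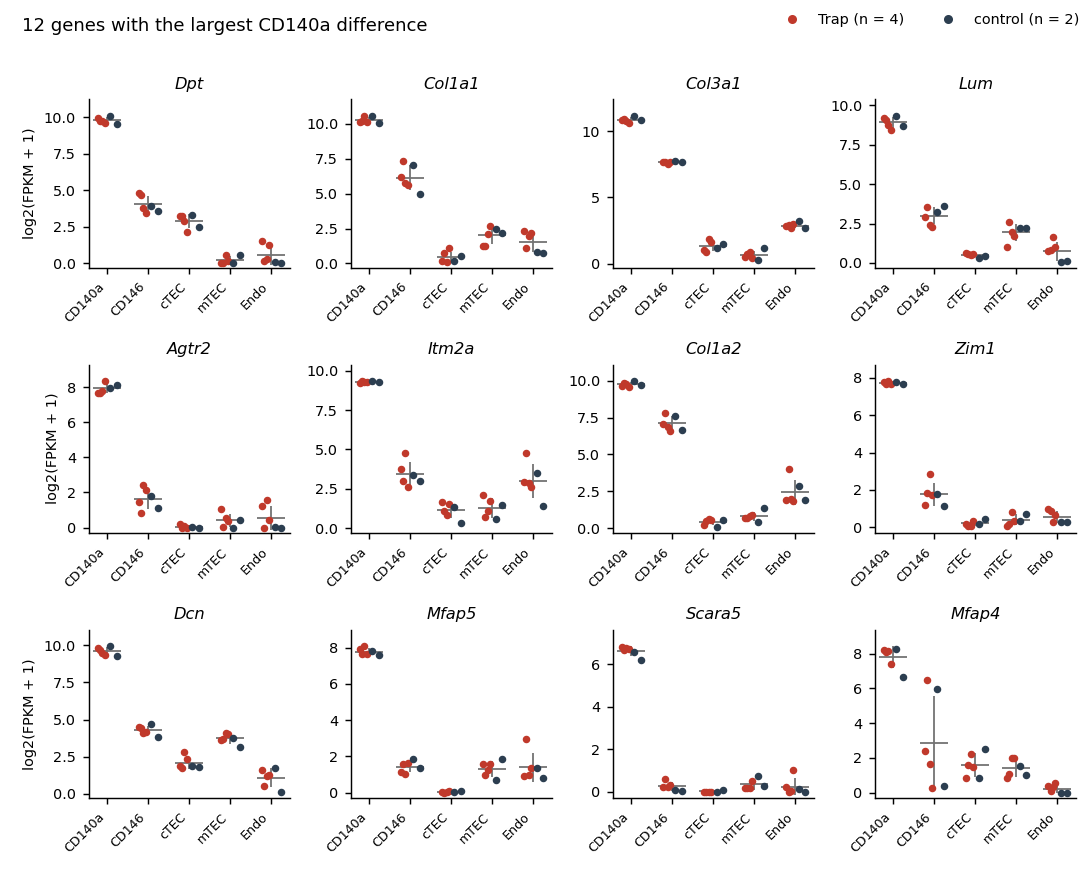
The 12 genes with the largest difference, each with its log2(FPKM + 1) in all 30 libraries on the y axis and the 5 populations on the x axis. Points are libraries (4 Trap in red, 2 control in dark blue) and the grey bar and whiskers give the mean and SD of the 6. In each panel the CD140a+ points lie above all others, which was a condition of the ranking. In the Mfap4 panel 2 CD146+ libraries stand apart from the other 4.

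Some fibroblast transcripts were high in 2 of the 6 CD146+ libraries, the nearest population. Mfap4 stood at 87.9 FPKM in CD146+ Trap replicate 2 and at 61.7 FPKM in CD146+ control replicate 1, while the other 4 CD146+ libraries held 0.21 to 4.28 FPKM. Sfrp2, which encodes a secreted WNT antagonist, stood at 92.6 and 56.9 FPKM in the same libraries and at 1.85 to 3.60 FPKM in the other 4. Mfap4 was higher in CD140a+ cells by 6.28 ± 0.59, an SE larger than that of the other 14 genes with the largest differences. Without both of these CD146+ libraries, likewise chosen after seeing the data, 744 genes were higher than in each other population, 718 of them among the 782 with all libraries.

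Of 18 genes of a fibroblast core list, 17 were higher in CD140a+ cells, with a median difference of 5.85, and 16 were higher than in each other population. For this and every later list, the shares among all genes tested were 17.9% higher, 34.1% lower and 4.76% higher than in each. The members that were not highest by every comparison were Pdpn, the gene of podoplanin, and S100a4, a calcium-binding protein gene. Pdpn stood at 46.4 FPKM in CD140a+ cells and at 36.3 FPKM in cTEC. S100a4, often used as a fibroblast marker, was at 1.17 FPKM in CD140a+ cells and highest in mTEC at 16.1 FPKM, a difference of -1.34 ± 0.50 that was -1.24 and did not pass when any one of CD140a+ control replicates 1 and 2 or Trap replicates 1, 2 and 4 was left out (limma adjusted p from 0.0634 to 0.0674). Nearly all of the CD140a+ mean of S100a4 came from Trap replicate 3. Thy1, which encodes the surface protein CD90, stood at 47.1 FPKM in CD140a+ cells, against 16.2 FPKM in CD146+ cells, 6.91 in cTEC, 1.98 in mTEC and 1.998 in endothelium.

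Genes of adventitial fibroblasts, the cells of the outer vessel wall and of fascia, were higher in 15 of 16 cases, with a median of 3.33, and 13 were higher than in each other population. Pi16, a peptidase inhibitor gene that marks such fibroblasts in many organs, stood at 71.8, 39.4, 64.2 and 32.1 FPKM in the Trap libraries and at 38.1 and 23.6 FPKM in the control libraries. Its mean was at most 1.34 FPKM in the other populations. Dpp4, which encodes the dipeptidyl peptidase CD26, was at 36.2 FPKM in CD140a+ cells and at most 3.78 FPKM on average elsewhere. Cd34 and Ly6a (Sca-1), surface markers shared with endothelium, stood at 71.2 and 461 FPKM, against 42.2 and 353 FPKM in endothelium, and of the pair only Cd34 was higher than in each other population. Anxa3 did not pass (0.19 ± 0.12).

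The collagen genes separated by type. Of 11 fibrillar collagen genes 9 were higher (median 3.51) and 6 were higher than in each other population, namely Col1a1, Col1a2, Col3a1, Col5a1, Col5a2 and Col5a3. Col5a1 and Col5a2, which encode the type V chains that nucleate fibrils, stood at 232 and 125 FPKM, against 67.8 and 38.8 FPKM in CD146+ cells. The cartilage collagen gene Col2a1 was near 0, at 0.0450 FPKM. Of 24 other interstitial collagen genes tested, 12 were higher and 4 lower (median 0.37). Col14a1, a fibril-associated collagen, led this group at 225 FPKM, against 12.7 FPKM in CD146+ cells, 0.542 in cTEC, 9.21 in mTEC and 1.81 in endothelium. The type VI chains, which form beaded filaments, were shared with mural cells: Col6a1 stood at 295 FPKM, against 176 FPKM in CD146+ cells, and Col6a3 at 161, against 94.99 FPKM. Col6a6 stood more apart, at 151 FPKM against 27.01 FPKM in CD146+ cells. Col6a5 was lower in CD140a+ cells than in CD146+ cells, at 8.58 against 27.9 FPKM (difference between these populations -1.54 ± 0.26, limma adjusted p = 2.95e-05).

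The machinery that folds, cleaves and crosslinks collagen was higher as well. Of 30 genes of collagen biosynthesis 26 were higher (median 1.94) and 17 were higher than in each other population. Loxl1, a lysyl oxidase that crosslinks elastin and collagen, was higher by 4.22 ± 0.21 at 33.2 FPKM, and Pcolce, which enhances removal of the collagen propeptide, by 3.90 ± 0.18 at 57.6 FPKM. Serpinh1, the collagen chaperone of the endoplasmic reticulum, was higher by 2.12 ± 0.12, at 154 FPKM against 99.7 FPKM in CD146+ cells. P3h2, a prolyl 3-hydroxylase known to act on basement membrane collagen, went the other way, at 21.1 FPKM against 129.7 FPKM in CD146+ cells and 71.4 FPKM in endothelium.

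Small leucine-rich proteoglycans bind collagen fibrils and set their diameter and spacing. Of 17 such genes 13 were higher (median 1.76), 8 of them than in each other population, and only Fmod was lower, at 0.680 FPKM against 21.2 FPKM in CD146+ cells. Neighbouring genes of this family differed in level. In the cluster of 203 kb at chr10:97479609-97682454, Dcn and Lum were high, and Kera, which encodes keratocan, stood at 15.4, 19.2 and 30.1 FPKM and was listed at 0 in all libraries of CD146+ cells, cTEC and endothelium. Epyc, the fourth gene of that cluster, stood at 3.70 FPKM in CD140a+ cells and at 6.60 FPKM in mTEC. In the cluster of 120 kb at chr13:49504810-49624501, Ogn and Aspn stood at 148 and 148 FPKM, against 7.47 and 66.8 FPKM in CD146+ cells. Ecm2 of the same cluster stood at 18.5 FPKM in CD140a+ cells and 21.6 FPKM in CD146+ cells, which did not differ by the test (difference -0.27 ± 0.21, limma adjusted p = 0.375).

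Of 20 genes of elastic fibres and microfibrils 16 were higher (median 2.12) and 8 were higher than in each other population. Fbn1, which encodes fibrillin-1, the core of microfibrils, stood at 832, 884 and 1112 FPKM, against at most 193 FPKM elsewhere. Efemp1 and Fbln1, which encode fibulins, stood at 196 and 86.3 FPKM and at most 6.33 and 5.12 FPKM on average in other populations. Eln, the gene of elastin itself, was not among the called genes: it stood at 28.5 FPKM in CD140a+ cells, against 287 FPKM in CD146+ cells and 106 FPKM in endothelium (0.84 ± 0.53).

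The basement membrane genes differed in direction from member to member. Of 22 tested, 11 were higher and 5 lower (median 0.33). Among all genes 17.9% were higher and 34.1% lower, so the lower members were a smaller share than among all genes. Lama2, the laminin alpha chain of mesenchyme and muscle, stood at 106, 136 and 144 FPKM in CD140a+ cells, against 25.2, 30.9 and 39.1 FPKM in CD146+ cells and at most 1.55 FPKM on average in the rest. Nid1, which encodes nidogen-1, a link between laminin and collagen IV, stood at 939.7 FPKM, against 233 FPKM in CD146+ cells, 16.9 in cTEC, 11.5 in mTEC and 214 in endothelium. The alpha chains used by epithelium and endothelium showed the reverse: Lama3 stood at 0.0300, 0.110 and 0.180 FPKM, against no less than 3.70 FPKM in any other library, and Lama5 at 0.360, 0.730 and 1.82 FPKM, against no less than 2.95 FPKM. For both genes all 6 CD140a+ libraries lay below all 24 others. Col4a1 and Col4a2, the main collagen IV chains, stood at 131 and 129 FPKM and did not pass, lying between endothelium (399 and 391 FPKM) and cTEC (49.99 and 63.5 FPKM).

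Among other matrix glycoproteins 24 of 39 tested were higher and 5 lower (median 0.85). Postn, which encodes periostin, separated both mesenchymal populations from the rest, at 686, 775 and 935 FPKM in CD140a+ cells and 488, 524 and 555 FPKM in CD146+ cells, against at most 8.44 FPKM on average elsewhere. Tnc, the gene of tenascin-C, was lower, at 14.8 FPKM, against 76.2 FPKM in CD146+ cells, 1215 in cTEC, 396 in mTEC and 11.6 in endothelium. Of 36 matrix proteases and their inhibitors 18 were higher and 11 lower (median 0.38), the lower share not above the 34.1% of all genes. Mmp2, a gelatinase, stood at 205, 264 and 298 FPKM, against at most 53.2 FPKM elsewhere, and Adamts5, which cleaves proteoglycans, at 71.6 FPKM on average. Timp3, a metalloproteinase inhibitor held in the matrix, was lower than in each other population: 33.4, 36.2 and 43.8 FPKM in CD140a+ cells, against no less than 83.3 FPKM in the other 24 libraries.

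Added up, 114 matrix genes made up 6.64%, 6.83% and 7.66% (lowest, median and highest) of all FPKM in the CD140a+ libraries. The same genes made up 1.84% to 2.83% in CD146+ cells and between 0.455% and 1.45% in the libraries of the other 3 populations. Since FPKM are shares of a library, a large share of a few genes lowers the values of all others, and its part in the 5605 lower genes was not tested. Col3a1 was the most abundant gene in the table of CD140a+ cells at 1869.8 FPKM, followed by Sparc at 1661 FPKM, a collagen-binding protein gene that reached 1011 FPKM in endothelium and 907 FPKM in CD146+ cells.

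**Figure D3:**
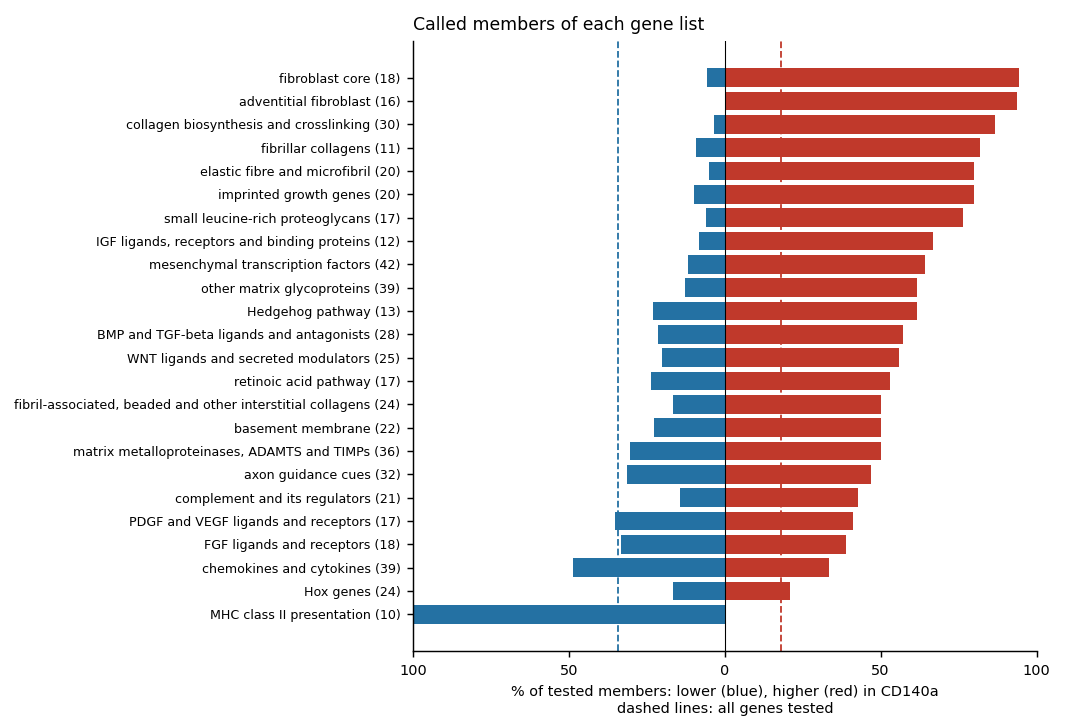
For each gene list the red bar gives the percent of tested members higher and the blue bar the percent lower in CD140a+ mesenchyme than the mean of the other populations, with the number tested in brackets. Dashed lines mark the 17.9% and 34.1% of all genes, and the lists run from MHC class II, with 10 of 10 members lower, to the fibroblast core, with 17 of 18 higher.

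Of 42 transcription factor genes of mesenchyme tested, 27 were higher (median 1.59), 12 were higher than in each other population and 5 were lower (3 without CD140a+ Trap replicate 2 or 4). Ebf2, Osr1, Osr2 and Twist1 led those that set CD140a+ cells apart, with means of 45.7, 29.1, 27.8 and 24.05 FPKM, against 16.9, 7.44, 6.09 and 7.93 FPKM in CD146+ cells. Prrx1, a homeobox gene of limb and craniofacial mesenchyme, was shared by both mesenchymal populations, at 45.1 ± 4.63 FPKM in CD140a+ cells and 51.1 ± 4.10 FPKM in CD146+ cells (SD, n = 6). Zeb2 and Ebf1 were lower in CD140a+ than in CD146+ cells, at 55.6 against 128 FPKM and 62.04 against 95.1 FPKM. Wt1, the Wilms tumour gene, which also marks mesothelium, stood at 3.23, 6.64 and 8.26 FPKM, against at most 0.380 FPKM elsewhere. The other 8 mesothelial markers tested were all lower, Msln among them at 0.248 FPKM.

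Six2 and Foxc1 were among the lower factors, at 0.750 and 1.46 FPKM, against 28.98 FPKM in cTEC for Six2 and 6.97 FPKM in CD146+ cells for Foxc1. Hox genes, which record position along the body axis, gave no common direction: 24 of 39 were high enough to test, 5 were higher and 4 lower (7 without mTEC Trap replicate 2), with a median of -0.10 whose sign changed under quantile normalization. Among the higher ones, Hoxa5 stood at 3.25 FPKM and Hoxa3 at 3.03 FPKM. Hoxb4 did not pass without CD140a+ control replicate 1, where its difference was 0.54 (limma adjusted p = 0.0572).

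Several growth factor genes known to act on thymic epithelium were highest in CD140a+ cells. Fgf10, a ligand of the epithelial receptor FGFR2, stood at 38.4, 42.9 and 64.9 FPKM, against at most 0.920 FPKM in any other library (5.32 ± 0.13). Fgf7, the keratinocyte growth factor that uses the same receptor, stood at 17.99, 29.5 and 43.9 FPKM, against at most 2.72 FPKM (4.26 ± 0.16). The receptor was transcribed mainly in other cells: Fgfr2 stood at 3.76 FPKM in CD140a+ cells and at 45.3 and 25.1 FPKM in cTEC and mTEC. Fgf18 and Fgf2 were also higher than in each other population, at 81.2 and 25.98 FPKM. Of 18 tested members of the family 7 were higher and 6 lower, at a median of -0.15 whose sign changed with a filter of 5 FPKM. The lower share was close to the 34.1% of all genes, and the higher share lay above their 17.9%. Fgf21 and Fgf14 were among the lower ones, highest in mTEC (19.9 FPKM) and in cTEC (68.8 FPKM).

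Of 12 genes of the insulin-like growth factor system tested, 8 were higher (median 2.62) and only Igfals was lower. Igf1 stood at 87.7, 124 and 141 FPKM, against at most 11.7 FPKM elsewhere, and Igf2, its imprinted relative, at 18.9, 24.5 and 36.3 FPKM, against at most 1.77 FPKM. The receptor gene Igf1r did not pass (-0.12 ± 0.07), at 24.3 FPKM, against 26.2 FPKM in CD146+ cells, 40.6 in cTEC, 20.5 in mTEC and 22.4 in endothelium. Igf2r, which removes IGF2 from the surroundings, was higher than in each other population at 96.1 FPKM. The binding protein genes Igfbp3 and Igfbp4 were higher than in each, whereas Igfbp5 was at 246 FPKM in CD140a+ cells and 248 FPKM in CD146+ cells, and Igfbp7 was lower than in CD146+ cells and endothelium, at 268 against 601 and 729 FPKM.

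Among BMP and TGF-beta ligands and antagonists, 16 of 28 tested were higher and 6 lower (median 0.50). Gdf10, a ligand of this superfamily, stood at 29.5, 34.01 and 44.8 FPKM, against at most 2.28 FPKM elsewhere. Bmp4, which acts on the early thymic epithelium, stood at 56.9 ± 13.99 FPKM in CD140a+ cells and at 43.05 ± 24.3 FPKM in endothelium (SD, n = 6), and was not higher than in each. Bmp2 and Tgfb1 were lower than the mean, with differences of -1.13 ± 0.20 and -0.92 ± 0.14. The antagonist genes Chrdl1, Bmper and Nbl1 were higher than in each other population, at 13.6, 12.3 and 40.1 FPKM. Fstl1, which encodes a secreted follistatin-like protein, was the fifth most abundant gene of the table in CD140a+ cells at 1249 FPKM.

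Of 25 WNT ligands and secreted modulators tested, 14 were higher (median 1.16), 11 of them than in each other population, and 5 were lower. Wnt5a, a ligand of the non-canonical pathway, stood at 8.08, 10.8 and 13.02 FPKM, against at most 1.51 FPKM, and Wnt2b and Wnt9a at 16.9 and 7.003 FPKM on average. Dkk2, which encodes a modulator of WNT co-receptors, led the list at 48.7, 67.2 and 92.5 FPKM, against at most 10.9 FPKM. Wnt4, known as an epithelial WNT of the thymus, was lower, at 1.52 FPKM against 29.9 FPKM in cTEC.

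Genes that make retinoic acid were higher: Aldh1a1 by 2.81 ± 0.18 and Aldh1a2 by 2.21 ± 0.16, at 10.6 and 9.88 FPKM. Cyp26a1, which degrades it, was listed at 0 in CD140a+ cells and stood at 17.6 FPKM in mTEC. In the whole list 9 of 17 genes were higher and 4 lower (median 0.67). Of 13 Hedgehog pathway genes tested 8 were higher and 3 lower (median 0.81). The co-receptor genes Cdon and Gas1 stood at 55.6 and 80.2 FPKM and the target gene Gli1 at 3.52 FPKM. All of them were higher than in each other population. Ptch1 and Hhip, also genes of this pathway, went the other way and were lower than the mean. The difference of Ptch1 was -0.23 under quantile normalization and that of Hhip -0.91 in control libraries alone, where they did not pass. The ligand genes were near 0 in CD140a+ cells (Shh 0.172 and Dhh 0.990 FPKM).

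Aflibercept binds the product of Vegfa, and Vegfa was higher in CD140a+ cells than in each other population. It stood at 47.2, 59.4 and 67.7 FPKM, against 19.5, 21.8 and 23.5 FPKM in CD146+ cells and at most 27.9 FPKM in any library (1.73 ± 0.08). Its receptor genes Kdr and Flt1 were at 0.555 and 1.40 FPKM, against 114 and 126 FPKM in endothelium. Pdgfa, the ligand of the receptor used for sorting, was lower than in each other population, at 2.01, 3.33 and 8.54 FPKM against no less than 15.9 FPKM elsewhere. Over the whole list of PDGF and VEGF genes 7 of 17 were higher and 6 lower (median 0.29), the lower share close to the 34.1% of all genes.

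**Figure D4:**
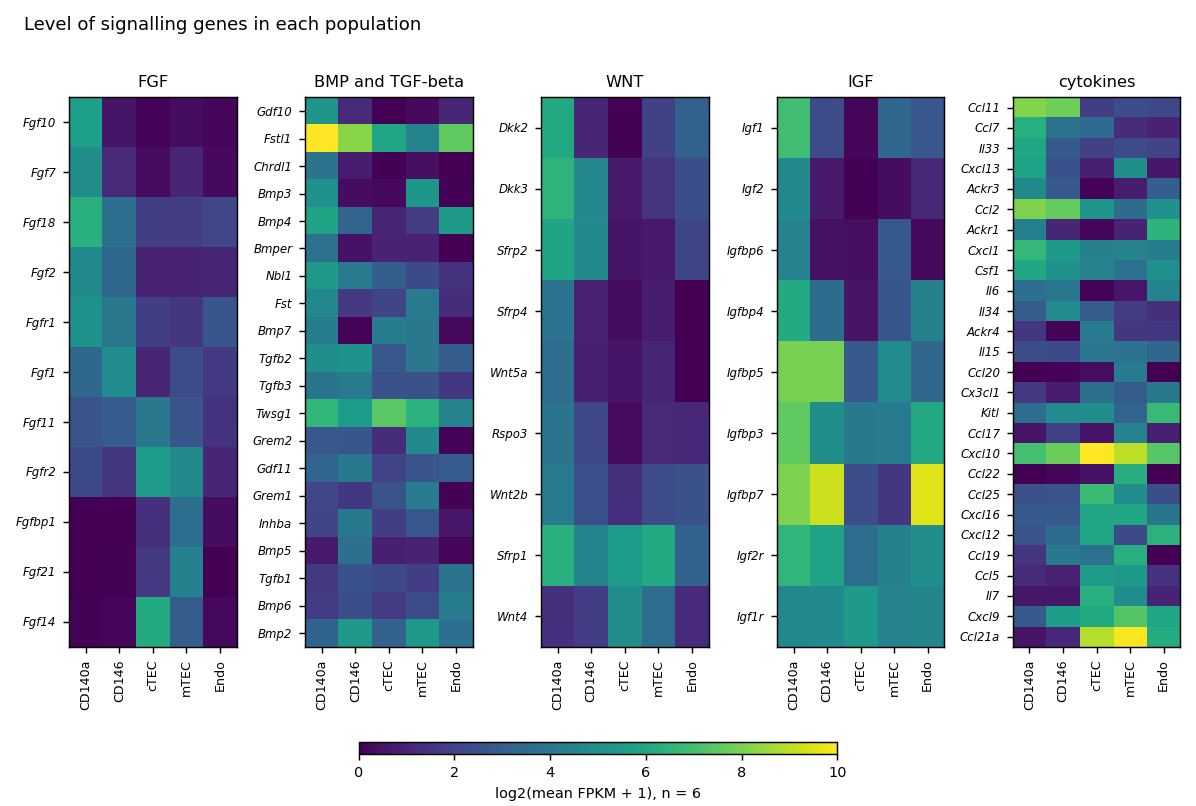
Heat maps of log2(mean FPKM + 1) for members of 5 signalling lists that reach a mean of 10 FPKM in at least 1 population, with genes ordered from top to bottom by their CD140a+ difference and populations in columns (n = 6 libraries each). Fgf10, Igf1, Dkk2 and Gdf10 are bright in the CD140a column, whereas Il7, Ccl21a and Cxcl9 are dark there.

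Cytokine genes were called in both directions, 19 of 39 tested lower and 13 higher (median -0.58). Ccl21a, Il7 and Ccl19, which draw or sustain thymocytes, were low in CD140a+ cells, at 0.493, 0.543 and 1.93 FPKM, against 948, 28.2 and 78.1 FPKM in mTEC. Cxcl12, a chemokine that guides thymic progenitors, stood at 3.11, 4.23 and 8.81 FPKM, against 53.99, 59.5 and 67.5 FPKM in cTEC and 63.4, 81.1 and 111 FPKM in endothelium. Kitl, the stem cell factor gene, stood at 11.3 FPKM, against 106 FPKM in endothelium. Of those that were higher, Il33, an alarmin gene, stood at 49.04, 68.4 and 71.5 FPKM, against at most 12.5 FPKM elsewhere, and Ccl7 and Csf1 at 77.5 and 60.4 FPKM were also higher than in each other population. Ccl11 and Ccl2 were shared with CD146+ cells, at 284 and 265 FPKM, against 221 and 193 FPKM.

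Complement genes were higher in 9 of 21 cases and lower in 3 (median 0.50). C3, the central component, stood at 150, 134, 127 and 204 FPKM in the Trap libraries and at 393 and 135 FPKM in the control libraries, so that 1 control library lay apart. Cd55, which protects cells from complement, stood at 115 FPKM, against at most 19.7 FPKM on average elsewhere. Of 32 axon guidance genes tested 15 were higher and 10 lower (median 0.32), the lower share not above the 34.1% of all genes. Sema3c and Slit3, which encode secreted cues, were higher than in each other population at 90.7 and 113 FPKM, and Plxnb1 was lower at 0.643 FPKM.

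Imprinted genes with roles in growth, which are expressed from a single parental copy, were higher in 16 of 20 cases with a median of 2.46, and 12 were higher than in each other population. Besides Zim1, the neighbouring Peg3 at chr7:6703892-6730431 stood at 447 FPKM, against 75.1 FPKM in CD146+ cells, 24.2 in cTEC, 25.5 in mTEC and 60.9 in endothelium. Mest, which encodes an enzyme of the endoplasmic reticulum, stood at 667, 689 and 814 FPKM, against 112, 228 and 432 FPKM in endothelium and at most 23.5 FPKM on average in the rest. Cdkn1c, a cell cycle inhibitor gene, stood at 285, 329.7 and 346 FPKM, against at most 109 FPKM. Dlk1 and Plagl1 stood at 47.5 and 252 FPKM. Expressed from the maternal copy (Cdkn1c, Grb10, Igf2r) or the paternal copy (Mest, Peg3, Igf2, Dlk1, Plagl1), these genes were all higher than in each other population. The exceptions were Nnat and Zdbf2, which were lower at 1.36 and 4.59 FPKM. The difference of Nnat, -0.63 ± 0.19, was -0.40 (limma adjusted p = 0.151) without CD140a+ control replicate 1 and Trap replicate 2.

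The genes furthest below every other population included several that interferon-gamma induces. Tgtp2, which encodes an immunity-related GTPase, stood at 0.860, 4.71 and 8.72 FPKM in CD140a+ cells, against no less than 61.5 FPKM in any other library (-4.20 ± 0.26 relative to mTEC, the nearest population). Its near-identical copy Tgtp1 stood at 0, 0.475 and 1.01 FPKM, against no less than 4.48 FPKM, and how the counting divided reads between the copies is uncertain. Ifi47 and Cxcl9, an interferon-inducible GTPase and a chemokine, stood at 3.50, 6.57 and 11.1 and at 4.27, 6.17 and 8.65 FPKM, against no less than 36.97 and 35.6 FPKM. These 4 genes were among the 10 with the largest margin below each other population, which was the reason to look at their family. The lists that follow were therefore chosen after those values were seen and are given as a description.

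Of 17 immunity-related and guanylate-binding GTPase genes tested, 14 had their lowest mean in CD140a+ cells (82.4%, against 29.1% of all genes tested), 9 were lower than in each other population, and the median difference was -2.24. Igtp stood at 7.77, 10.96 and 16.3 FPKM, against no less than 34.8 FPKM, and Irgm1 at 5.06, 7.12 and 8.54 FPKM, against no less than 13.3 FPKM. Of 17 genes that load MHC class I, 13 had their lowest mean in CD140a+ cells (median -1.43): H2-K1 stood at 25.8, 36.3 and 40.4 FPKM, against no less than 60.4 FPKM, Tap1 at 3.07, 3.54 and 5.12 FPKM, against no less than 9.12 FPKM, and the regulator Nlrc5 at 1.84 FPKM. B2m, which encodes the light chain of MHC class I, was still the sixth most abundant gene of the table in CD140a+ cells, at 849.6, 937 and 1152 FPKM, although all 24 other libraries lay above them. Calr and Pdia3, general chaperones of the same pathway, were higher, by 0.45 ± 0.08 and 0.68 ± 0.16.

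Of 19 antiviral genes tested 16 had their lowest mean in CD140a+ cells (median -1.40), for example Isg15 at 1.87 FPKM, against 6.13 FPKM in CD146+ cells, 26.6 in cTEC, 12.7 in mTEC and 7.62 in endothelium, while Oas2 was higher by 0.74 ± 0.23. Receptors and signalling genes differed less, with 7 of 16 lowest in CD140a+ cells (median -0.36). The receptor genes Ifngr1 and Ifnar1 did not pass (-0.0033 ± 0.12 and 0.15 ± 0.09), and Ifngr1 stood at 18.5 FPKM, against 11.7 FPKM in CD146+ cells, 13.8 in cTEC, 16.9 in mTEC and 42.9 in endothelium. Socs3, which encodes a feedback inhibitor of cytokine signalling, was higher by 1.10 ± 0.14. Over the 4 lists 32 of 69 genes were lower than in each other population, beside 504 of all 16425. These numbers were 23 beside 357 under quantile normalization, and 11 beside 83 in the 10 control libraries alone.

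The promoters of 4 of these GTPase genes are shown because each holds the motif that interferon-regulatory factors bind, and 3 also hold the motif of gamma-activated sites. The sequences are RefSeq's for GRCm38.p6, the 120 bases before the start of the gene, 5′ to 3′ on the strand of the gene. Capitals mark GAAANNGAAA, the core of the interferon-stimulated response element, and TTCNNNGAA, the core of the gamma-activated site, where N is any base.
Tgtp1, chr11:48992247-48992366, minus strand: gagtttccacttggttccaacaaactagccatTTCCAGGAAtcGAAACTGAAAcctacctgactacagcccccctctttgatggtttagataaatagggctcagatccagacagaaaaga
Tgtp2, chr11:49064213-49064332, minus strand: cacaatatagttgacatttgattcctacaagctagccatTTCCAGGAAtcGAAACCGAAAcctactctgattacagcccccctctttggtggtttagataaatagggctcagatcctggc
Igtp, chr11:58199436-58199555, plus strand: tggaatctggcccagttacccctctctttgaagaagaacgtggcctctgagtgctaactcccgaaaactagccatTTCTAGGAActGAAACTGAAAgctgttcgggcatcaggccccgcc
Irgm1, chr11:48871421-48871540, minus strand: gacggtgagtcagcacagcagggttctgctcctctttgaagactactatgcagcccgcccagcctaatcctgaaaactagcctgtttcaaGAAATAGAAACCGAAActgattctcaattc
The first match of GAAANNGAAA lay 77 bases before the start in Tgtp1, 70 in Tgtp2, 34 in Igtp and 30 in Irgm1, and TTCNNNGAA stood a few bases further upstream, at 88, 81 and 45 bases, in the 3 that hold it. On either strand GAAANNGAAA occurs in 978 of 32851 RefSeq promoter windows of 250 bases (2.98%) and TTCNNNGAA in 2306 (7.02%). Of 11 genes of the GTPase list with such a window, 10 held GAAANNGAAA, the exception being Ifi47. A match is a description of the letters and not evidence of binding.

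The other 6 of the 10 genes with the largest margin below each population were Itga6, Myo1d, Lmo7, Tes, Cdc42ep3 and Epha2. Itga6, the laminin receptor subunit alpha 6, stood at 1.16, 3.26 and 4.75 FPKM, against no less than 16.99 FPKM in any other library and 99.1 FPKM in mTEC, beside the low Lama3 and Lama5 given above. Myo1d, an unconventional myosin gene, stood at 0.670, 1.88 and 2.90 FPKM, against no less than 15.9 FPKM (-3.19 ± 0.17 relative to the nearest population). Lmo7 and Tes, which encode proteins of cell junctions and focal adhesions, were at 0.127 and 0.582 FPKM, Cdc42ep3, an effector of CDC42, at 0.642 FPKM, and the ephrin receptor gene Epha2 at 0.362 FPKM. A lack of overlap with the 24 other libraries was a condition of this ranking and not a further result.

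**Figure D5:**
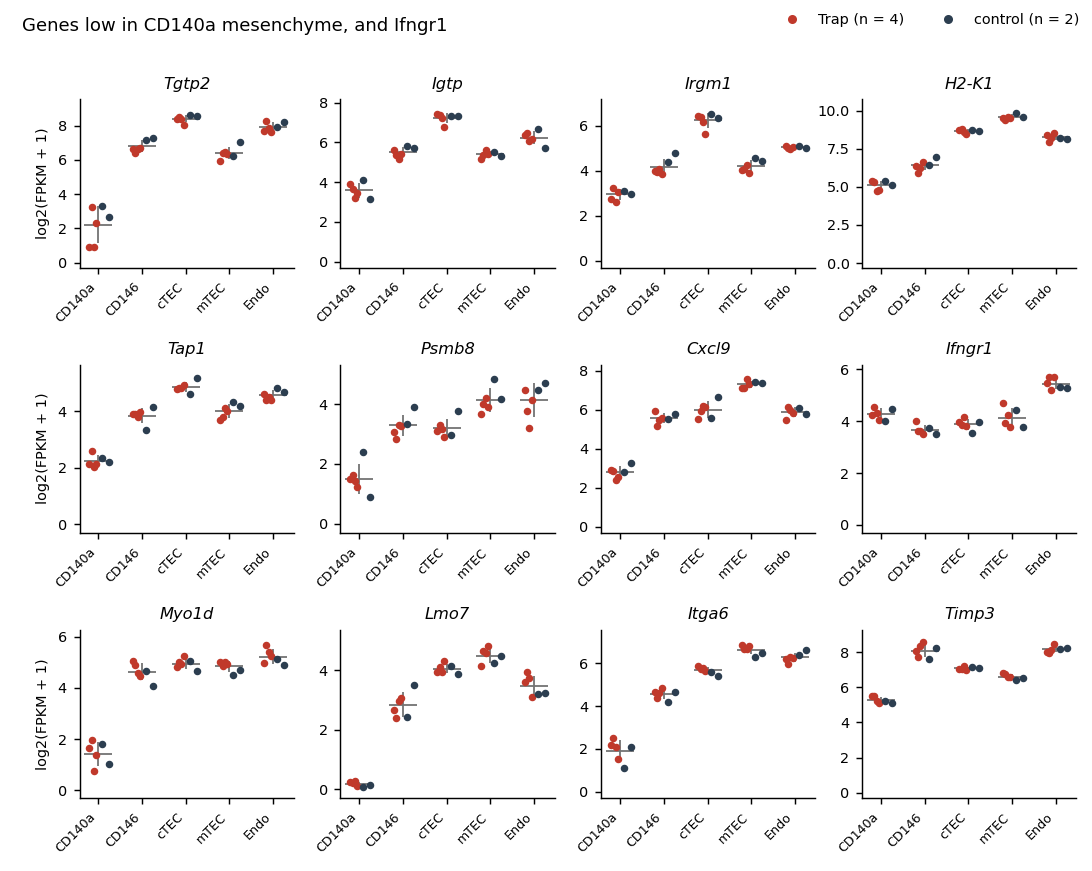
For 11 genes low in CD140a+ mesenchyme and for the receptor gene Ifngr1, log2(FPKM + 1) of all 30 libraries on the y axis by population on the x axis, with 4 Trap libraries in red, 2 control libraries in dark blue and the mean and SD of the 6 in grey. The CD140a+ points lie below all others except in the Ifngr1 panel, where they lie among them. For the genes ranked by margin this was a condition of the ranking.

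All 10 genes of MHC class II presentation were lower than the mean of the other populations (median -2.36), with the high values in both epithelial populations. Cd74, the invariant chain gene, stood at 4.01 FPKM in CD140a+ cells, against 2.01 FPKM in CD146+ cells, 1036 in cTEC, 2216 in mTEC and 14.5 in endothelium. Of 24 cell cycle genes 3 were higher and 7 lower, a smaller share in each direction than among all genes, and 4 were lower when any one of CD140a+ Trap replicates 1 and 2 or the endothelial control replicates was left out (3 without CD140a+ control replicate 1 and Trap replicate 2).

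No difference between Trap and control was detected in this contrast. For the difference of the CD140a+ contrast between Trap and control libraries, 579 of 16425 genes had an unadjusted p under 0.05 in limma. For Trap against control within CD140a+ cells 609 did, and both are smaller shares than that threshold gives by chance. After adjustment no gene (0%) passed for the difference of the contrast, nor for Trap against control within CD140a+ cells. Without CD140a+ control replicate 1 the first of these counts was 3, and without control replicate 2 it was 6. The gene of smallest p, Zkscan16, a zinc finger gene, stood at 0.06, 0.78, 0.20 and 0.81 FPKM in CD140a+ Trap libraries, against 1.57 and 3.42 FPKM in control libraries, and its change differed from that of the other populations by -1.29 ± 0.24 (limma adjusted p = 0.205). Phlda3, a p53 target gene, stood at 5.68, 8.11, 3.63 and 4.22 FPKM in Trap libraries, against 1.55 and 1.32 FPKM in control libraries (1.78 ± 0.40, limma adjusted p = 0.481). Papln and Ppt2 were likewise higher in all 4 Trap libraries than in both control libraries and did not pass. For genes that lead the population contrast the estimate carried a wide error: the change of Dpt differed by -0.30 ± 0.43 and that of Agtr2 by -0.52 ± 0.43 (log2, SE). With 2 control libraries a p above the threshold does not show that Trap left these genes as they were.

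Within the 6 CD140a+ libraries, between 247 and 367 of the 16425 genes in each lay more than 1 log2 unit from the median library. Besides Dpep1, C3 and Pi16, the uneven genes included Mfap2, which encodes a microfibril protein, at 46.5, 18.9, 38.6 and 14.4 FPKM in Trap libraries and 24.6 and 12.6 FPKM in control libraries. Cxcl13, a B cell chemokine gene, stood at 13.2, 11.2, 70.1 and 76.9 FPKM in Trap libraries and at 45.5 and 109 FPKM in control libraries, so that 2 Trap libraries lay below the other 4 CD140a+ libraries. Thbs4, a tendon matrix gene, stood at 64.6 FPKM in Trap replicate 3 and at 0.63 to 7.31 FPKM in the other 5, and it did not pass (0.71 ± 0.49).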

How the data were processed

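RNA of 5 stromal populations sorted from neonatal mouse thymus was sequenced in 30 libraries, 6 per population (4 Trap, 2 control), grouped by the labels. The authors deposited FPKM values for 18847 genes. Per the submitters' processing notes, bcl2fastq 2.17, STAR and DESeq2 were used with GRCm38 and mm10; what each tool did, how reads were counted, on which strand and with which annotation is not given in the sources used here. Of the Ensembl identifiers 18836 were found in GENCODE M21, and 27 symbols turned into dates were restored through them. No column of values lacked a sample (0 unmapped). The files give no counts, so the depth is unknown and precision was read from the spread between libraries; FPKM summed to 184608 to 241993 per library. An exact 0 means only that a gene is listed at 0. cDNA was amplified before library construction, per the labels' protocols.

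Genes at 1 FPKM or more in at least 2 libraries (16425) were fitted on log2(FPKM + 1) with 1 mean per group of population and treatment in limma 3.58.1 (R 4.3.3, variance trend, two-sided, Benjamini-Hochberg adjusted p under 0.05). A population's mean weighted its libraries equally. With a pseudocount of 1, differences understate changes of genes at low levels. A gene was higher or lower than each population when the largest of 4 one-sided p-values passed after adjustment. The fits were tested on simulated data with known changes.

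Genes named are the 15 largest differences, the 10 largest margins above and the 10 below every other population, up to 8 of each list with the members against the list's direction, a fixed set of stromal genes, and the 5 smallest p in each direction for Trap; symbols that are only clone identifiers were left out. Of 763 list entries in 37 lists, 759 were found in the table. Thy1, Pdpn, Anxa3, Epyc, Ecm2, Eln, Col6a5, Serpinh1, Col4a1, Col4a2, Ebf1, Fgfr2, Igf1r, Shh, Grb10, Plagl1, Igtp, Irgm1, H2-K1, Tap1, Nlrc5, B2m, Calr, Pdia3, Isg15, Oas2, Ifngr1, Ifnar1 and Socs3 fall outside that rule and were chosen after their values were seen. The members, lists and tests were all chosen with earlier results of these data known. Some genes are not reported here. Alternatives changed the pseudocount, the filter, the scaling, the block, the weights and the libraries included.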

Additional observations from a re-analysis of the deposited data

Results flagged for a closer look

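Among the 4 CD140a+ Trap libraries, 58 genes of the report were checked for a single library far from the other 3, and 4 exceeded the 95% critical value of Dixon's test; chance gives about 1 in 20. Col1a1 was highest in Trap replicate 3, where it reached 1525 FPKM, while replicates 1, 2 and 4 held 1132, 1172 and 1123 FPKM. Agtr2 was highest in Trap replicate 4, at 321 FPKM against 202, 203 and 216 FPKM. Mfap4 was lowest in Trap replicate 4, at 168 FPKM against 297, 272 and 281 FPKM. Prrx1 was lowest in Trap replicate 3, at 36.0 FPKM against 46.0, 46.3 and 46.2 FPKM.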

How the results depend on the processing

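More genes were lower than higher than the mean in every setting tried. The 10 control libraries alone, which are fewer samples by construction, gave 1707 genes higher and 3034 lower than the mean, 272 higher than each and 83 lower than each; the Trap libraries alone gave 2568, 4597, 626 and 342. Upper quartile scaling gave 3173 higher and 5113 lower, rescaling to TPM 3302 and 4930 (40.1% upward), quantile normalization 3651 and 4316, a pseudocount of 0.1 3006 and 5401, and equal weight for Trap and control 2805 and 5422. Leaving out 1 library at a time gave 2743 to 3008 higher, 5229 to 5809 lower, 742 to 806 higher than each, 459 to 569 lower than each and 0 to 6 genes for the difference between Trap and control.

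That last count was 2 without a filter (Zkscan16 and Olfr1260), 3 without CD140a+ control replicate 1, also 3 with CD140a+ Trap replicate 2 left out as well (Zkscan16, Hoxd1 and Speer4f2 both times), and 6 without CD140a+ control replicate 2. In the fits that leave out a control library, the remaining CD140a+ control library is assumed to vary like the other groups, and the cause was not tested. Among the single genes reported, 5 turned round: in control libraries alone Phlda3 was -1.17, Mcm3 -0.67, Paqr4 -0.23 and Tspan7 0.10, and in Trap libraries alone Tle6 was -0.046. They were named for the smallest p of a difference between Trap and control.

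With the replicate number fitted as a block there were 2987 higher, 5648 lower, 784 higher than each, 534 lower than each and 0 for Trap. Whether libraries of the same number came from the same animals was not tested. For 60 pairs of the same number and treatment in different populations, correlations of residuals ran from -0.0496 to 0.102 (median 0.0246). For 140 pairs of the same treatment but different numbers they ran from -0.0855 to 0.082 (median -0.00836). Since FPKM carry no depth, no counting error could be set beside values near 0, and with 2 control libraries per population the difference between Trap and control was the least precise result.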
